A study of Mus musculus with 7 samples.

Results

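The AP-1 family described here comprises 10 genes, which were found by their symbols among the 19736 symbols of the deposited tables. They are the FOS genes Fos, Fosb, Fosl1 and Fosl2, the JUN genes Jun, Junb and Jund, the small factors Batf and Batf3, and Atf3. Genes were tested where 3 or more of the 7 libraries reached a value of 10, which kept 14582 genes and all 10 members. The libraries are RNA-seq of regulatory T (Treg) cells sorted by flow cytometry from digests of whole lung. In 3 libraries the cells were CCR6+ Foxp3-EGFP+ and in 4 libraries CCR6- Foxp3-EGFP+. CCR6 is a chemokine receptor that binds CCL20, and EGFP reports Foxp3, the defining transcription factor of Treg cells. All mice, of both groups, were females of 5 to 7 weeks with the Il4raR576 allele, a variant of the alpha subunit of the receptor for IL-4. Mice without this allele were not analysed here. All were sensitized to ovalbumin with 100 µg by intraperitoneal injection and a boost 2 weeks later. Daily exposures of 30 min to nebulized 1% ovalbumin began on day 29 and were given on 3 days, and the lungs were taken on day 32. The labels do not say how many mice or cells made up a library, nor that replicate libraries stem from different animals. The p-values therefore reflect library-to-library spread alone, and part of that spread may be technical.

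AP-1 is a group of basic leucine zipper (bZIP) proteins that bind DNA as dimers. A FOS protein pairs with a JUN protein, while JUN proteins also pair with each other, with BATF proteins and with ATF3. Many of the genes are immediate early genes, which are transcribed within minutes of antigen receptor, growth factor or stress signals, and which are also known to be induced while tissue is dissociated into single cells. BATF and BATF3 lack a transactivation domain and act with JUN partners and with IRF4 or IRF8. In mice, BATF is known as a factor needed for TH17 cells and for Treg cells of tissues, and BATF3 for one class of dendritic cells.

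Between 11607780 and 47261246 reads per library were recovered from the deposited values, and the shallowest library was CCR6+ replicate 2. Ccr6 stood at 2750 to 7309 normalised counts in CCR6+ libraries and 271 to 909 in CCR6- libraries, as the sort asks. Foxp3 stood at 12206 to 50875 in CCR6+ and 19376 to 39097 in CCR6- libraries. CCR6+ replicate 2 stood apart before any AP-1 gene is read. Its 7 Treg and T cell markers summed to 110565, against 215901 to 288397 in the other 6 libraries, and it held the highest value of all 10 macrophage and monocyte markers, all 9 dendritic cell markers and all 9 endothelial and stromal markers. Of the other lists, B cell markers summed to 1311 to 5556 in CCR6+ and 468 to 3580 in CCR6- libraries, granulocyte markers to 2574 to 3318 in CCR6+ and 1322 to 2537 in CCR6- libraries, and epithelial markers to 2905 to 52189 in CCR6+ and 1437 to 6832 in CCR6- libraries. Ccr3 was lowest in CCR6+ replicate 2, at 628, and made up most of the granulocyte sum in the other 6 libraries. CCR6+ replicate 2 held the highest value of 7 of the 8 granulocyte markers. Among them S100a8 stood at 432 there, against 2.76 to 57.6 in the other 6 libraries. CCR6+ replicate 2 was the highest library for 43.6% of all tested genes, and CCR6- replicate 4 for 21.6%. The log2 difference of each member is therefore given with and without CCR6+ replicate 2, as is that of any other gene named from a pathway list for which it moved by over 1.5 times or changed sign. Fewer cells of a type and less RNA per cell cannot be told apart in these pooled cells.

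Promoter sequence was matched for 9 of the 10 members in the RefSeq annotation of the mouse assembly GRCm38.p6, and Fosl1 is named only. The 250 bases before the annotated start are shown for the pair of genes whose groups did not overlap (Fosl2 and Atf3) and for Fos and Jun, the founding members of the family. Whether transcription begins at these starts in these cells was not tested. Capitals mark matches on either strand to TGACG, the core of the cyclic AMP response element, or to TGACATCA, a variant AP-1 site, and the Fosl2 window has no match. The windows lie at chr5:32136222-32136471 on the plus strand for Fosl2, chr1:191183334-191183583 on the minus strand for Atf3, chr12:85473640-85473889 on the plus strand for Fos and chr4:95052223-95052472 on the minus strand for Jun, and each is written 5′ to 3′ along its gene. The RefSeq starts of Fosl2 and Atf3 used for these windows lie inside the longer gene spans given below. The window of Jund, which is not shown, ends at 70697738, ahead of the gene span given below, which begins at 70698949. It may therefore miss the bases next to that start.
Fosl2: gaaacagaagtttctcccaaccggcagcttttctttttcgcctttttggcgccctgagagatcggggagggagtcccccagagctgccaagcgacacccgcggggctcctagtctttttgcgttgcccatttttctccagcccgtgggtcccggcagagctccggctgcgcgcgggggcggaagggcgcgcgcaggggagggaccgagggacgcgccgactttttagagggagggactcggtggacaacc
Atf3: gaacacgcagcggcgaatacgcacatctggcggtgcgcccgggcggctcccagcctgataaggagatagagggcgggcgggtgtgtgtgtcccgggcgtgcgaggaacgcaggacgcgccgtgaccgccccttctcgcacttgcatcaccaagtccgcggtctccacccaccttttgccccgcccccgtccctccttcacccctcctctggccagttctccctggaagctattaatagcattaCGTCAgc
Fos: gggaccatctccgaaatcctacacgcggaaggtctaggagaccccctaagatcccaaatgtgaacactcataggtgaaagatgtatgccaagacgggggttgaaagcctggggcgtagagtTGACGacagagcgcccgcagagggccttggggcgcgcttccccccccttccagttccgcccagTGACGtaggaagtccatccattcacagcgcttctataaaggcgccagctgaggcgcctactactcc
Jun: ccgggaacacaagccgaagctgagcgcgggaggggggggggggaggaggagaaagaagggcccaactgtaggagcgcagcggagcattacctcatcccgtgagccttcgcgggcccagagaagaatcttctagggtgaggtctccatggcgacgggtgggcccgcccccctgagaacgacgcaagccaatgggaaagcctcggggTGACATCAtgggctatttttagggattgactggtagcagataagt
TGACG was found in 5 of the 9 members' windows (Fos, Fosb, Junb, Batf and Atf3), and in 17.8% of all 32851 RefSeq promoter windows of this length. In Fos it occurs at 2 places, whose first bases lie at positions -129 and -66 relative to the start. In Atf3 it lies on the opposite strand at position -7. TGACATCA was found in Jun alone among the members, at position -45, and in 2.93% of all windows. The full AP-1 site TGACTCA, the full response element TGACGTCA (which contains TGACG) and the CArG box, the binding site of serum response factor, were found in none of the 9 windows, and in 4.46%, 1.55% and 1.47% of all windows. A match describes letters and is not a measured site. Bases more than 250 ahead of a start were not searched, so a window without a match may still have a site further upstream.

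Of the 10 members, 0 passed the threshold of 0.05 on the adjusted p in either direction when CCR6+ was compared with CCR6- cells (limma on log2(value + 1), Benjamini-Hochberg adjustment over all genes tested). Over all genes 0 of 14582 passed, which is 0%. At an unadjusted limma p under 0.05 there were 2 members, Fosl2 and Atf3, where 10.6% of all genes tested stood. The same pair were the members whose groups did not overlap, both with higher values in CCR6+ libraries. Groups without overlap were found for 13.5% of all genes tested, and for 7.96% with CCR6+ higher. On recovered reads, edgeR called 0 members, with 0.0137% of all genes called, and DESeq2 called 1, Atf3, with 4.66% of all genes called. Leaving out CCR6+ replicate 2 moved the DESeq2 call to Fosl2, and Atf3 was no longer called. The median log2 difference of the members (CCR6+ minus CCR6-, here and below) was 0.016, against 0.097 over all genes tested, and 5 of 10 members had a positive value, against 56.9% of all genes. Without CCR6+ replicate 2 the median was 0.17, against 0.0012 over all genes, and 6 of 10 members had a positive value, against 50.1% of all genes. That median lies midway between Junb, whose positive value was only 0.00012, and Batf at 0.34. In that setting the groups did not overlap for 3 members, Fosl2 and Atf3 with CCR6+ higher and Fosl1 with CCR6+ lower, where this held for 20.3% of all genes, 10.9% higher and 9.43% lower. Without CCR6+ replicate 1 the members were Fosb, Fosl2 and Atf3, where 37.9% of all genes had groups without overlap. Without CCR6+ replicate 3 they were Batf3, Fosl2 and Atf3, where 22.4% did. With quantile normalization, where 13.2% of all genes had groups without overlap, the members were Atf3 and Fosl1, and the Fosl2 groups overlapped. With both CCR6+ replicate 2 and CCR6- replicate 4 left out, Jund joined Fosl1, Fosl2 and Atf3, where 26.3% of all genes had groups without overlap.

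**Figure D1:**
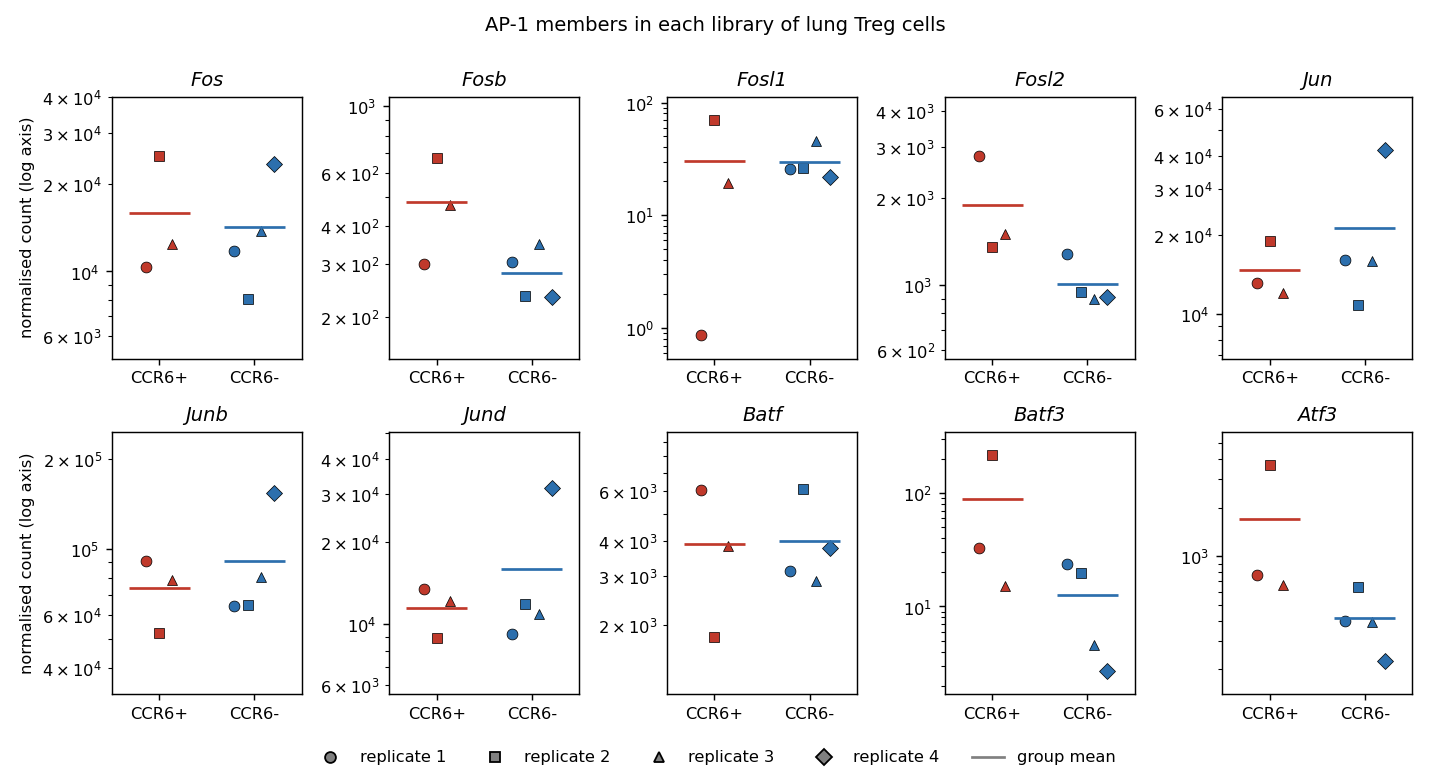
Normalised count of each AP-1 member (log axis, a scale of its own in each panel) in 3 CCR6+ libraries (red) and 4 CCR6- libraries (blue), with the replicate number as the symbol and the group mean as a line. Fosl2 and Atf3 are the panels without overlap between the groups, and CCR6- replicate 4 is the highest point for Jun, Junb and Jund.

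Levels within the family spanned a wide range. Compared per kilobase of annotated exon, Junb came first in every library, with a mean over the 7 libraries of 36320 ± 14504 normalised counts per kb (SD). Jund followed at 8393 ± 4714 and Fos at 6377 ± 2817. Next were Jun at 5765 ± 3361 and Batf at 2804 ± 1143 normalised counts per kb. The genes Jund, Fos and Jun are neighbours in this order whose ranges overlap, with Jund above Fos in 6 of 7 libraries and Fos above Jun in 5 of 7. The low end held Atf3 at 449 ± 561, Fosl2 at 143 ± 69 and Fosb at 58.8 ± 25.2 normalised counts per kb. Batf3 at 28.2 ± 47.7 and Fosl1 at 14.8 ± 10.9 were the lowest and held that order in 4 of 7 libraries only. Junb above Jund was the only step between neighbours at which the ranges did not overlap. Of the exonic bases of Jund 52.6%, and of those of Fosl1 57.2%, overlap genes on the opposite strand. The effect of this on their levels and shares per kb was not tested.

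The JUN genes made up 70.8% of the family's summed level per kb in CCR6+ replicate 2 and 82.5% to 88.4% in the other 6 libraries. The FOS genes made up 22.7% in CCR6+ replicate 2 and 7.59% to 11.2% in the others. Fos alone accounted for 22.1% of the sum in CCR6+ replicate 2. The ratio of Junb to Fos per kb was 2.14 in that library, and 8.96 and 6.48 in CCR6+ replicates 1 and 3, against 5.61, 8.25, 5.94 and 6.66 in CCR6- replicates 1 to 4. Apart from CCR6+ replicate 2, the ranges of this ratio overlapped between the groups. The family as a whole took 0.456%, 0.428% and 0.437% of all deposited units in CCR6+ replicates 1 to 3, and 0.362%, 0.353%, 0.434% and 0.799% in CCR6- replicates 1 to 4.

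**Figure D2:**
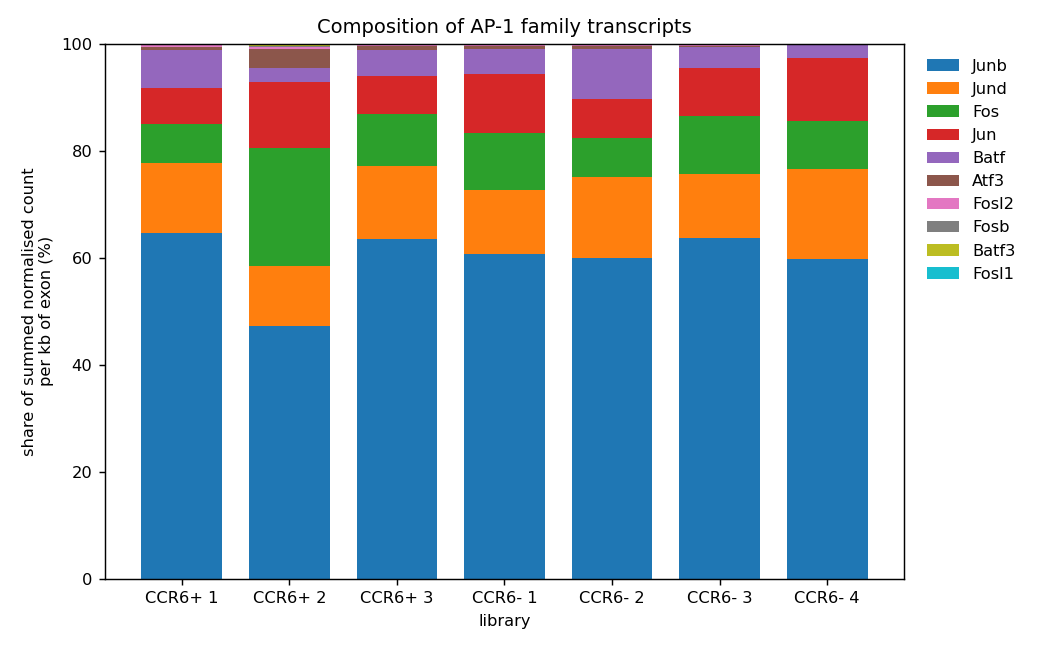
Share of each AP-1 member in the family's summed normalised count per kb of exon (y axis, in percent) in each library (x axis), from Junb at the bottom to Fosl1 at the top. The share of Junb lies between 59.8% and 64.7% in 6 libraries and at 47.3% in CCR6+ replicate 2, where that of Fos is 22.1%.

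Fosl2 encodes FRA-2, a FOS-related protein that in mice is known as a regulator of TH17 gene programs. It lies on mm10 chromosome 5 from 32135801 to 32157842. Its values were 2794, 1358 and 1506 normalised counts in CCR6+ replicates 1 to 3, against 1279, 948, 895 and 914 in CCR6- replicates 1 to 4. All 3 CCR6+ libraries thus lay above all 4 CCR6- libraries, with replicate 1 of each group the highest of its group. The group means were 1886 ± 790 in CCR6+ (SD, n = 3) and 1009 ± 181 in CCR6- libraries (n = 4). Its log2 difference was 0.84 (SE 0.30, 95% interval 0.11 to 1.57) with a limma adjusted p of 0.455, which does not pass. The narrowest gap between the groups, CCR6+ replicate 2 against CCR6- replicate 1, was within counting error. Their exact 95% Poisson intervals were 1251 to 1471, from 597 reads, and 1211 to 1349, from 1352 reads. Such intervals cover counting error only. Without CCR6+ replicate 2 the log2 difference was 1.04 (SE 0.31, limma adjusted p = 0.579), and without CCR6+ replicate 1 it was 0.52. The gene was called by DESeq2 once CCR6+ replicate 2 was left out (log2 difference 1.11, adjusted p = 0.0311), a setting in which 1.36% of all genes were called. With all libraries its DESeq2 adjusted p was 0.0769.

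Fos, for the founding member c-FOS, lies on chromosome 12 from 85473890 to 85477273. It stood at 10368, 25067 and 12445 normalised counts in CCR6+ replicates 1 to 3, against 11728, 8016, 13818 and 23556 in CCR6- replicates 1 to 4. The highest library of each group, CCR6+ replicate 2 and CCR6- replicate 4, lay well above the rest of its group, and the groups overlapped. The fitted log2 difference was 0.16 (SE 0.47, limma adjusted p = 0.875), with a 95% interval of -0.96 to 1.29, and its sign turned (-0.22) once CCR6+ replicate 2 was left out. The sign also turned (-0.080) without CCR6- replicate 2.

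Fosb, on chromosome 7 from 19302696 to 19310051, encodes another partner of JUN proteins. It stood at 301, 673 and 472 normalised counts in CCR6+ replicates 1 to 3. In CCR6- replicates 1 to 4 it stood at 305, 234, 349 and 234. The 2 highest libraries were CCR6+ replicates 2 and 3, while CCR6+ replicate 1 lay among the CCR6- libraries. The log2 difference was 0.72 (SE 0.32, limma adjusted p = 0.478), and 0.44 without CCR6+ replicate 2.

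Fosl1, for FRA-1, lies on chromosome 19 from 5447547 to 5455946 and was near the limit of detection, with 1, 31 and 19 reads in CCR6+ replicates 1 to 3 and 27, 32, 50 and 32 reads in CCR6- replicates 1 to 4. On the deposited scale these are 0.859, 70.5 and 19.3 normalised counts in CCR6+, and 25.5, 26.5, 46.0 and 21.7 in CCR6- libraries. CCR6+ libraries held both the highest and the lowest value. The single read of CCR6+ replicate 1 has an exact 95% Poisson interval of 0.0218 to 4.79 normalised counts. Fosl1 had a log2 difference of -1.09 (SE 1.18, limma adjusted p = 0.665). Without CCR6+ replicate 2 it was -2.27 and the CCR6+ values lay below all CCR6- values, whereas without CCR6+ replicate 1 it was 0.36. With quantile normalization, which called 0.0274% of all genes, the gene was called lower (log2 difference -2.98, limma adjusted p = 0.0489). Of its annotated exonic bases 57.2% overlap Ccdc85b on the opposite strand. The use of strand in counting is not given in the sources used here, so reads of the pair may not have been separable.

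The JUN genes had their highest values in CCR6- replicate 4. Junb, whose product is known in mice to sustain effector Treg and TH17 cells, stood at 90888, 52366 and 78849 normalised counts in CCR6+ replicates 1 to 3. In CCR6- replicates 1 to 4 it stood at 64383, 64704, 80257 and 153559. CCR6+ replicate 2 was the lowest of the 7 libraries, and the other 6 interleaved apart from CCR6- replicate 4. The fitted log2 difference was -0.23 (SE 0.38, 95% interval -1.16 to 0.69, limma adjusted p = 0.776). It was 0.00012 without CCR6+ replicate 2 and 0.056 without CCR6- replicate 4, so it has no direction either.

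Jun, for c-JUN, stood at 13127, 18955 and 12022 normalised counts in CCR6+ replicates 1 to 3, against 15999, 10852, 15861 and 41878 in CCR6- replicates 1 to 4. Jund, the JUN member that is known to be expressed more constantly than the others, stood at 13402, 8915 and 12195 in CCR6+ replicates, against 9234, 11864, 10925 and 31458 in CCR6- replicates. For both genes 1 library, CCR6- replicate 4, was far above the other 6, among which the groups overlapped. The log2 differences were -0.35 (SE 0.48, limma adjusted p = 0.723) for Jun and -0.30 (SE 0.46, limma adjusted p = 0.760) for Jund. Without CCR6- replicate 4 they were 0.040 and 0.095, and with CCR6+ replicate 2 left out -0.55 and -0.12. Of the exonic bases of Junb 7.52% overlap Prdx2 on the opposite strand. Of those of Jund 52.6% overlap the antisense gene Gm11175, and 7.28% of those of Jun overlap the antisense gene Junos. Jun lies on chromosome 4 from 95049034 to 95052222, Junb on chromosome 8 from 84974484 to 84978718 and Jund on the same chromosome from 70698949 to 70700616.

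CCR6- replicate 4 had more than 1.5 times the value of the highest other CCR6- library for 4 of the 10 members, where this held for 5.71% of all genes tested. The ratios were 2.62 for Jun, 1.91 for Junb, 2.65 for Jund and 1.70 for Fos. The limit of 1.5 was chosen after the values were seen. In the same library Fosb, Batf3 and Atf3 were the lowest of all 7. CCR6- replicate 4 was the deepest library, had 29.7% of the genes at 0, the most of any, and had the lowest sum of macrophage and monocyte markers (1343, against 5745 to 34556 in the other CCR6- libraries). The part of depth or of other cells in the JUN values was not tested. With equal library totals the log2 differences of Jun, Junb and Jund were -0.27, -0.14 and -0.21.

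**Figure D3:**
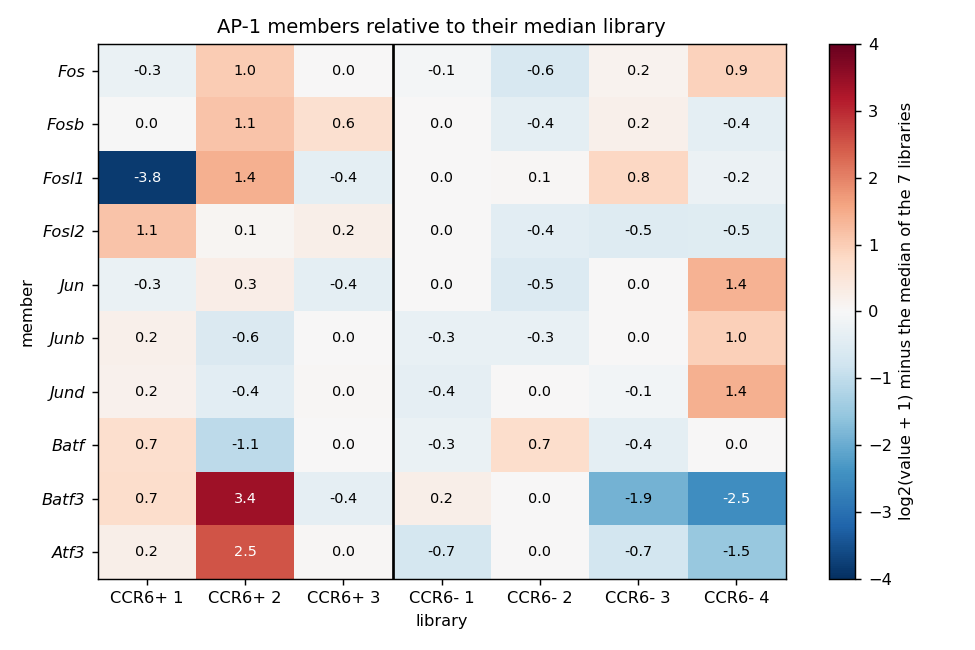
Log2(value + 1) of each AP-1 member (rows) in each library (columns) minus the member's median over the 7 libraries, with the CCR6+ libraries left of the black line and the CCR6- libraries right of it. CCR6+ replicate 2 is high for Batf3 and Atf3 (3.38 for Batf3) and low for Batf (-1.06), while CCR6- replicate 4 is high for Jun (1.40), Junb (0.96) and Jund (1.41).

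Batf stood at 6055, 1817 and 3820 normalised counts in CCR6+ replicates 1 to 3, against 3132, 6111, 2884 and 3779 in CCR6- replicates 1 to 4. The highest value of either group was almost the same, and CCR6+ replicate 2, with the fewest Treg and T cell transcripts, was the lowest library. The means were 3897 ± 2120 (SD, n = 3) in CCR6+ and 3976 ± 1472 (n = 4) in CCR6- libraries. The log2 difference was -0.13 (SE 0.47, 95% interval -1.27 to 1.02, limma adjusted p = 0.904), and 0.34 without CCR6+ replicate 2. It was also positive, at 0.10, without CCR6- replicate 2, so its sign rests on single libraries. Batf lies on chromosome 12 from 85686669 to 85709087.

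Batf3, on chromosome 1 from 191097847 to 191108945, was low in most libraries, at 32.6, 216 and 15.2 normalised counts in CCR6+ replicates 1 to 3, against 23.6, 19.9, 4.60 and 2.71 in CCR6- replicates 1 to 4. These values rest on 38, 95 and 15 reads in CCR6+ and on 25, 24, 5 and 4 reads in CCR6- libraries. CCR6+ replicate 2 was the highest, and CCR6+ replicate 3 lay within the CCR6- range. Batf3 had a log2 difference of 2.27 (SE 1.11, limma adjusted p = 0.491), and 1.20 without CCR6+ replicate 2. All 9 dendritic cell markers were highest in CCR6+ replicate 2 as well. Their summed level was 102203 there, 28943 and 11956 in CCR6+ replicates 1 and 3, and 4554 to 15151 in the CCR6- libraries. Outside CCR6+ replicate 2 not every marker followed Batf3. Of the 9 only Clec9a was at 0 in a library, which was CCR6+ replicate 1. Xcr1 stood at 88.5 and 231 normalised counts in CCR6+ replicates 1 and 3. In CCR6- replicates 1 to 4 Xcr1 stood at 47.3, 30.7, 92.9 and 75.1. Cd74, an antigen presentation gene, stood at 17927, 56003 and 6148 normalised counts in CCR6+ replicates, against 6456, 9053, 2163 and 2715 in CCR6- replicates. All 8 dendritic cell markers tested had positive log2 differences, and the median was 2.13, against 1.27 when CCR6+ replicate 2 was left out. Medians were also positive for the other lists outside Treg and T cells. Macrophage and monocyte markers had 2.35 and B cell markers 2.21, or 1.44 and 1.84 without CCR6+ replicate 2. Granulocyte markers had 2.68, epithelial markers 1.85 and endothelial and stromal markers 2.41, or 1.51, 0.71 and 0.89 without it. The part of any of these cells in the Batf3 values was not tested.

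Atf3 encodes a stress-induced factor that represses or activates with its partner, and lies on chromosome 1 from 191170296 to 191218039. It stood at 768, 3674 and 663 normalised counts in CCR6+ replicates 1 to 3, against 399, 647, 391 and 225 in CCR6- replicates 1 to 4. CCR6+ replicate 2 was far above the other 6 libraries, and the groups did not overlap with or without it. Where the groups came closest, CCR6+ replicate 3 against CCR6- replicate 2, the exact 95% Poisson intervals overlapped, at 613 to 716 and 603 to 694. The fitted log2 difference was 1.66 (SE 0.69, 95% interval 0.004 to 3.32, limma adjusted p = 0.471). Without CCR6+ replicate 2 it was 0.88 (SE 0.42, limma adjusted p = 0.723). DESeq2 called it with all libraries (log2 difference 2.02, adjusted p = 0.0379), and edgeR did not (1.90, adjusted p = 0.314). With CCR6+ replicate 2 left out the DESeq2 call was lost (log2 difference 0.80, adjusted p = 0.621), and edgeR gave 0.78 (adjusted p = 0.742). CCR6+ replicate 2 also held the highest values of other cell types' markers. The 10 macrophage and monocyte markers summed to 121479 there, 52812 and 9748 in CCR6+ replicates 1 and 3, and 1343 to 34556 in CCR6- libraries, with Adgre1, Mrc1 and Marco at 0 in up to 2 libraries. The 9 endothelial and stromal markers summed to 48852 there, 6057 and 8663 in CCR6+ replicates 1 and 3, and 5495 to 8247 in CCR6- libraries, with Pdgfra at 0 in 1 library. In CCR6- replicates 1 to 4 the macrophage and monocyte sums were 30560, 34556, 5745 and 1343. The part of these cells in the Atf3 values was not tested.

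**Figure D4:**
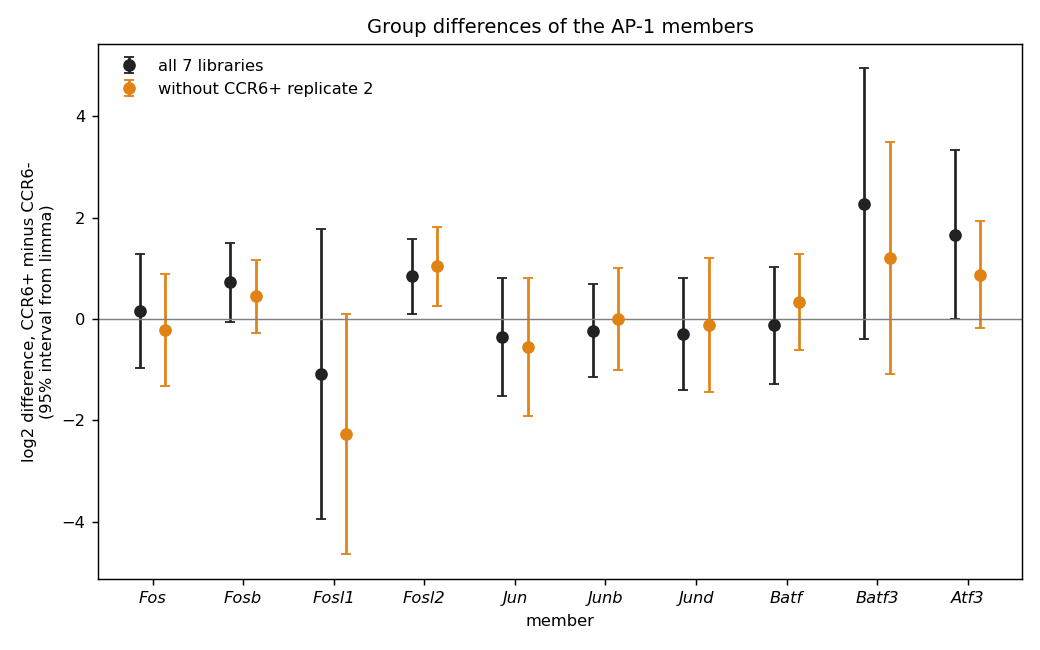
Log2 difference (CCR6+ minus CCR6-) of each AP-1 member with its 95% interval from limma, for all 7 libraries (black) and without CCR6+ replicate 2 (orange). Only Fosl2 keeps an unadjusted interval above 0 in both fits, and the estimates of Fos, Junb and Batf change sign between the fits.

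Other genes of the pathway gave 0 calls as well, in every list read (limma adjusted p over all genes). Of 13 tested bZIP relatives of AP-1, 9 had a positive log2 difference. Their median was 0.29, and 0.34 without CCR6+ replicate 2. Mafg, a small MAF protein that binds related sites as a dimer, had the smallest p, with 1496, 1638 and 1417 normalised counts in CCR6+ replicates, against 1037, 1018, 1102 and 1098 in CCR6- replicates. Its groups did not overlap (log2 difference 0.51, SE 0.14, limma adjusted p = 0.435). It was the only list member tested of which this holds, where it held for 13.5% of all genes tested. Maf, for c-MAF, and Jdp2, a repressor of AP-1 that pairs with JUN proteins, had log2 differences of 0.58 and 0.50, with overlap. The most abundant relatives, Crem and Nfil3, had log2 differences of 0.0036 and 0.32, against 0.56 and 0.64 with CCR6+ replicate 2 left out.

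Upstream kinases and factors were balanced, 6 of 12 having a positive log2 difference. Their median was -0.013, and -0.061 without CCR6+ replicate 2. Prkcq, for the kinase that links the T cell receptor to AP-1 in T cells, had a log2 difference of -0.45 (SE 0.26, limma adjusted p = 0.521), or -0.20 with CCR6+ replicate 2 left out. Mapk9, for the JUN kinase JNK2, and Elk4, a partner of serum response factor, had -0.28 and -0.31, or -0.17 and -0.48 with it left out. In 6 of these 12 genes CCR6- replicate 4 was the highest library.

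The 5 DNA-binding partners had a median log2 difference of 0.55, with 4 positive, or 0.19 with 5 positive without CCR6+ replicate 2. Irf4, the partner of BATF in T cells, stood at 4344, 1961 and 3110 normalised counts in CCR6+ replicates 1 to 3, against 3004, 2428, 2136 and 1106 in CCR6- replicates 1 to 4. CCR6+ replicates 1 and 3 were the highest, and CCR6+ replicate 2 was the second lowest. Irf4 had a log2 difference of 0.55 (SE 0.43, limma adjusted p = 0.587), or 0.85 without CCR6+ replicate 2. Irf8 and Nfatc2 both had 0.59, and Nfatc1 and Nfatc3 0.094 and -0.021. With CCR6+ replicate 2 left out Irf8 had 0.19 and Nfatc3 0.047.

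The 18 other immediate early genes gave 12 log2 differences above 0 and 6 below. Their median was 0.14, and 0.074 without CCR6+ replicate 2. Klf4, a zinc finger factor, stood at 189, 644 and 162 normalised counts in CCR6+ replicates, against 70.0, 112, 77.2 and 67.7 in CCR6- replicates, a log2 difference of 1.75 (SE 0.52, limma adjusted p = 0.440), or 1.12 with CCR6+ replicate 2 left out. Klf2, a factor of resting and recirculating T cells, stood at 15298, 16944 and 16495 in CCR6+ against 20516, 20572, 29662 and 26041 in CCR6- libraries, a log2 difference of -0.56 (SE 0.19, limma adjusted p = 0.449). These were the only 2 of the 18 genes whose groups did not overlap, where this held for 13.5% of all genes tested, and they pointed in opposite directions. Ier3, a survival gene, had a log2 difference of 2.78 (SE 1.18), and 1.80 without CCR6+ replicate 2. The most abundant genes of the list, Nfkbia and Dusp1, had 0.16 and -0.10, or 0.48 and -0.16 with it left out. Dusp1, for a phosphatase that switches off MAP kinases, resembled Jun and Jund in that CCR6- replicate 4, at 62286, was above the other 6 libraries, which lay between 16864 and 28363. CCR6- replicate 4 was the highest library for 6 of these 18 genes, and CCR6+ replicate 2 for 4.

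All 8 heat shock genes, which like the immediate early genes can be induced during tissue digestion, had negative log2 differences, with a median of -0.44. Leaving out CCR6+ replicate 2 gave -0.19 with 7 of 8 negative. With all libraries the groups overlapped for all 8, where 13.5% of all genes tested had groups without overlap. Dnajb1, a co-chaperone, had -0.55 (SE 0.28, limma adjusted p = 0.494), Hspa1b -0.76, Hspa8 -0.46 and Hsph1 -0.42. With CCR6+ replicate 2 left out Hspa1b had -0.26 and Hspa8 -0.29.

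Genes that are linked to BATF in mouse T cells were read as a tissue Treg list and a TH17 list. Of 14 tissue Treg genes 7 had a positive log2 difference and the median was 0.034, whereas without CCR6+ replicate 2 it was positive for 13 and the median was 0.53. Areg, for the growth factor amphiregulin, had 0.87 (SE 0.41), Rora 0.62, Il10 0.87, Icos 0.52 and Ctla4 0.24. Leaving out CCR6+ replicate 2 gave 1.27, 0.95, 0.86, 0.99 and 0.75. The 7 Treg and T cell markers, which include Ctla4 and Il2ra of this list, moved the same way. Of these markers 3 had a positive log2 difference with a median of -0.090, or 6 with a median of 0.37 without CCR6+ replicate 2. The part of T cell content in the tissue Treg values was not tested. Of 8 TH17 genes 7 passed the filter on low values. Of these Il17f, Il23r and Ccl20, 3 in all, passed it only because all 3 CCR6+ libraries reached a value of 10 while no CCR6- library did, so their direction was set by the filter and the list is given no count or median. Il23r, for the IL-23 receptor, stood at 281, 237 and 196 normalised counts in CCR6+ replicates, against 1.89, 0, 9.20 and 2.71 in CCR6- replicates, and Ahr, for the aryl hydrocarbon receptor, had a log2 difference of 1.47.

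**Figure D5:**
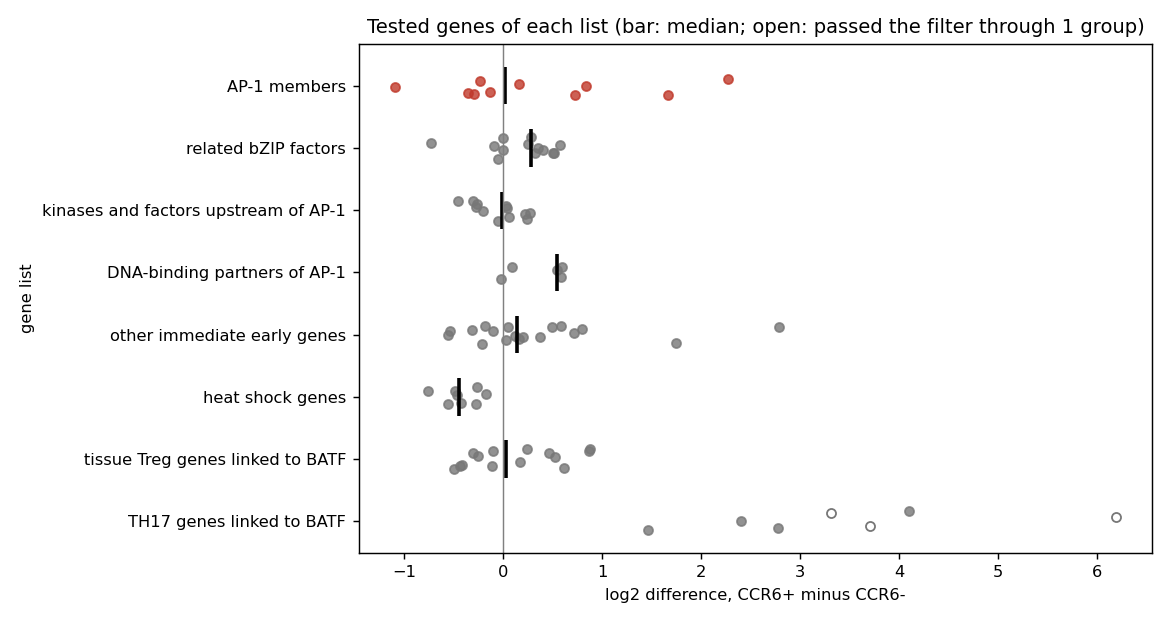
Log2 difference (CCR6+ minus CCR6-, x axis) of every tested gene of the AP-1 family (red) and of the other gene lists (grey), with the median of each list as a black bar, and open circles for 3 TH17 genes that passed the filter through the CCR6+ libraries alone, whose list has no bar. The AP-1 members spread on both sides of 0 with a median of 0.016.

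The genes whose pattern over the 7 libraries was most like that of a family member were read for the most abundant gene of each subfamily, among 10571 tested genes with a mean of at least 100, leaving out predicted genes, clone names and symbols that read as dates. The measure was the root mean square difference of log2(value + 1) after centring each gene on its own mean. For Fos they were Tmem170b (0.098), Sirt3 (0.151) and Rgs11 (0.152). For Junb they were Sh3gl1 (0.120), Adrm1 (0.129) and the immediate early gene Nr4a1 (0.133), which stood at 19135, 10944 and 16653 normalised counts in CCR6+ and 14905, 12905, 17702 and 25980 in CCR6- libraries. For Batf they were Gpr18 (0.113), Mgarp (0.139) and Apol10b (0.178). Gpr18, a receptor gene of lymphocytes, stood at 4859, 1426 and 3130 in CCR6+ and 2881, 4653, 2756 and 3267 in CCR6- libraries. Like Batf, it was highest in CCR6+ replicate 1 and CCR6- replicate 2 and lowest in CCR6+ replicate 2. All genes of a library share its depth and its mix of cells, so a like pattern says no more than that.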

How the data were processed

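RNA of sorted lung Treg cells was measured in 3 CCR6+ and 4 CCR6- libraries. The kits were SMART-Seq v4 for cDNA and KAPA Hyper Prep for libraries, per the labels' protocols. For each gene symbol the authors deposited a signal, which is a read count over a library-wide size factor. This reading rests on the values, which are whole multiples of 1 step per library, within 0.001 reads for 100% of them. Division by the step gave the reads. The build mm10 and the tools DESeq2 1.6.3, HTSeq 0.6.1p1 and STAR 2.5.1b are named, without their roles, per the submitters' processing notes. Neither annotation nor strand setting is given in the sources used here.

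The two-sided test was limma 3.58.1 (R 4.3.3), without covariates, on log2(value + 1) of genes that reached 10 in 3 or more libraries. This scale understates the change of low genes. P-values were adjusted over all genes tested. Whole reads were also tested with edgeR 4.0.16 and DESeq2 1.42.0, and the fits were tested on simulated data. Other alternatives were pseudocounts of 0.5 and 8, no filter, a mean of at least 100, equal totals, TMM, quantile normalization, the replicate number as a block, and each library left out. Per-kb levels used merged exons of GENCODE mouse release 21 on mm10, and positions are 1-based. Promoters are RefSeq's. The members and gene lists were chosen with earlier results of these data known. Named beside the members are, per list, the 3 genes of smallest p and the 2 of highest mean, the 3 genes most like the leading member of each subfamily, and the marker lists by their sums. The rule also took the first 2 genes of each marker list, of which only Foxp3 and those beside a result are printed. Some genes that the rule named are not reported here. The symbols Trac and Ighm, on the marker lists, were not analysed here. The labels name no batch.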

Additional observations from a re-analysis of the deposited data

Results flagged for a closer look

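The 4 CCR6- libraries were searched for a value far from its 3 neighbours in 64 measures: the members, the other named genes, the marker sums and the depth. It was found in 6 of them, and chance alone yields it in about 5% of measures. With 3 libraries the CCR6+ group is below the size this search needs. Jun stood at 41878 normalised counts in CCR6- replicate 4, against 10852 to 15999 in the other CCR6- libraries. Jund stood at 31458 in the same library, against 9234 to 11864. Fosl2 stood at 1279 in CCR6- replicate 1, against 895 to 948. Mapk9 stood at 5708 in CCR6- replicate 4, against 4279 to 4361, and Ctla4 at 21782 in that library, against 39979 to 41858. Nfil3 stood at 6558 in CCR6- replicate 2, against 5128 to 5314.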

How the results depend on the processing

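Over 20 alternatives, Fosl2, Atf3 and Fosb kept a positive log2 difference in all 20 and Batf3 in the 19 that could test it, with ranges of 0.52 to 1.11, 0.61 to 2.11, 0.36 to 1.03 and 0.29 to 3.07. Fosl1 and Batf3 have no value with a mean of at least 100. The number of genes called, 0 in the reported fit, was 1 with a pseudocount of 0.5 and with TMM, 2 with a pseudocount of 8, with a mean of at least 100 and with edgeR with or without CCR6+ replicate 2, 4 with quantile normalization, 679 with DESeq2 and 181 with DESeq2 without CCR6+ replicate 2. The number of members called was 1 with quantile normalization (Fosl1), 1 with DESeq2 (Atf3) and 1 with DESeq2 without CCR6+ replicate 2 (Fosl2). With 1 library left out at a time both numbers were 0, and the log2 differences ranged from -0.22 to 0.44 for Fos, -2.27 to 0.36 for Fosl1, -0.61 to 0.040 for Jun, -0.40 to 0.056 for Junb, -0.49 to 0.095 for Jund and -0.53 to 0.34 for Batf. The number of members whose groups do not overlap ranged from 2 to 3, where the share of all genes ranged from 16.5% to 37.9%. It was 4 (Fosl1, Fosl2, Jund and Atf3) without both CCR6+ replicate 2 and CCR6- replicate 4, where 26.3% of all genes tested had groups without overlap. That setting and the counts of members without overlap under other settings were chosen after seeing the data, and in it Junb stood at 0.29, Jund at 0.27 and Batf at 0.34. Without CCR6+ replicate 2, edgeR and DESeq2 gave Fos -0.33 and -0.31 and Batf 0.31 and 0.33. With the replicate number as a block the log2 differences of Jun, Junb and Jund turned to 0.040, 0.056 and 0.095, and 0 genes were called. CCR6- replicate 4 has no partner of its number, so that fit does not use it, and the 3 values equal those without that library. Same-numbered libraries deviated together only for number 3 (correlations of -0.13, -0.11 and 0.34), and not every library correlated best with its own number. These correlations cannot settle whether the numbers pair the libraries, since each library's depth and mix of cells enter them too. The causes of the other changes were not tested. The median log2 difference of all genes, 0.097, was -0.082 with quantile normalization and 0.43 with no filter. Counting error limits Fosl1 and Batf3, with 1 to 50 and 4 to 95 reads per library.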

Other observations

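Some of the members are neighbours in the genome. Batf lies 209 kb from Fos on chromosome 12, and Atf3 lies 61.4 kb from Batf3 on chromosome 1. Fos and Batf did not share their highest library, which was CCR6+ replicate 2 for Fos and CCR6- replicate 2 for Batf, and CCR6- replicate 2 was the lowest library for Fos. Atf3 and Batf3 were both highest in CCR6+ replicate 2 and both lowest in CCR6- replicate 4. Whether the position bears on either was not tested.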
